A study of Mus musculus with 2 samples.

Results

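The 10 genes described here, Angptl4, Plin2, Pnpla2, G0s2, Dgat1, Cpt1a, Pdk4, Pparg, Ppard and Lpl, encode proteins of the lipid droplet, of fatty acid release and burning, and of the PPAR pathway that controls them. They were chosen by name from the 31054 features counted, for what their products do with fat. The libraries hold single-cell RNA of hepatic stellate cell (HSC) preparations from male C57BL/6 mice, 1 library from p16-LRTD mice and 1 from p16-Alb-LRTD mice. Both genotypes carried p16-CreERT2 together with R26-CAG-LSL-RSR-tdTomato-2A-DTR, and received carbon tetrachloride (CCl4) for 4 weeks, tamoxifen and diphtheria toxin. The p16-Alb-LRTD mice are described as heterozygous, and for the p16-LRTD mice this is not stated. Only p16-Alb-LRTD mice also carried Alb-DreERT2, a recombinase driven by the albumin promoter of hepatocytes, so that their hepatocytes with high p16Ink4a expression made the toxin receptor and were eliminated. The p16-LRTD mice, which lack the Dre recombinase, were the control. Age and the number of mice per library are not given in the sources used here, so the spread between mice is unknown, no test was possible, and every difference is one between 2 libraries.

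HSCs store vitamin A and fat in cytoplasmic lipid droplets and lose these droplets as they turn into collagen-producing myofibroblasts. Droplets are coated by perilipins such as Plin2, filled by Dgat1 and emptied by the lipase Pnpla2 (ATGL), which G0s2 inhibits. Fatty acids from the droplet or from lipoproteins cut by Lpl bind the nuclear receptors Pparg and Ppard, whose known targets include Plin2, Angptl4, Cpt1a and Pdk4.

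The 10 genes were followed in 3 cell types, each gated on its own marker UMIs (unique transcript counts) per 10000 UMIs of a cell. Stellate cells had at least 15 of Lrat, Ecm1, Hgf and Reln, endothelial cells at least 8 of Kdr, Stab2 and Ptprb, and Kupffer cells, the liver macrophages, at least 8 of Clec4f, Cd5l, Vsig4 and Csf1r. The p16-LRTD library held 11149 barcodes and the p16-Alb-LRTD library 8806, of which 9004 and 7416 passed the study's filter. Stellate cells numbered 7852 and 6621, endothelial cells 430 and 283, and Kupffer cells 283 and 178. Barcodes that passed several gates, 245 and 221, were left out, as were 194 and 113 that passed none, and 18 kept barcodes occurred in both libraries. Median depth was 17024.5 and 18136 UMIs in stellate cells, 11781 and 11992 in endothelial cells, and 19514 and 25101.5 in Kupffer cells. Markers that the gates did not use were present in the type they mark, with Dcn at 18430 and 22186 CPM (UMIs scaled to a common total) in stellate cells, Pecam1 at 619 and 660 CPM in endothelial cells and Adgre1 at 1060 and 1189 CPM in Kupffer cells. Fcna, listed as a Kupffer marker, was also high in stellate cells, at 852 and 1429 CPM.

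Counts of all cells of a type were summed within a library and expressed as CPM. Where 2 values are given, p16-LRTD comes first. Intervals are 95% exact intervals that cover counting error only, neither mice nor library preparations. A gene was read where its mean over both libraries was at least 5 CPM, and was called higher or lower in p16-Alb-LRTD from a 1.5-fold difference. Differences are log2 ratios of p16-Alb-LRTD over p16-LRTD.

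In stellate cells, Angptl4 and Pdk4 were higher in the p16-Alb-LRTD library and the genes of the droplet itself were not. Angptl4, a secreted inhibitor of Lpl, was 3.27-fold higher, and Pdk4, the kinase that closes pyruvate dehydrogenase when cells burn fat, was 2.72-fold higher. Of the 10 genes, 9 were read in stellate cells, 2 were called higher and 0 lower, whereas 3.03% of all 10179 genes read were called higher and 3.05% lower. The other 7 lay between -0.38 for Plin2 and 0.25 for G0s2, and the median of the 9 was 0.06 beside -0.05 for all genes. Pparg, the adipogenic PPAR, was the gene not read, at 0.617 and 0.352 CPM.

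**Figure D1:**
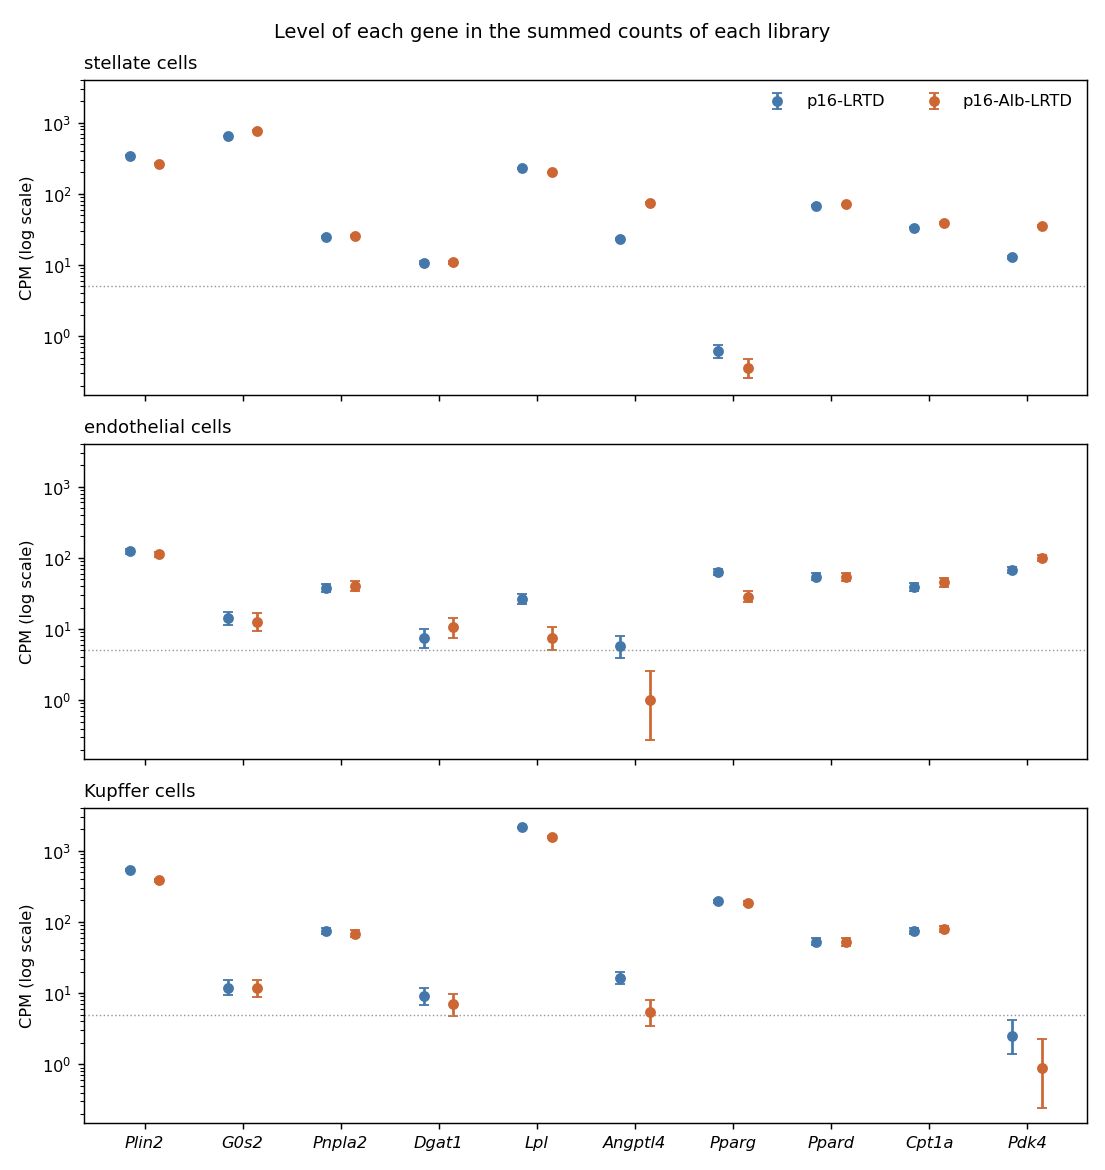
Level of each gene (CPM, log axis) in stellate, endothelial and Kupffer cells of the p16-LRTD library (blue) and the p16-Alb-LRTD library (orange), with 95% Poisson intervals that cover counting error only and a dotted line at 5 CPM. Levels can be compared between cell types and libraries within a gene, not between genes. G0s2 stood out in stellate cells, Lpl and Pparg in Kupffer cells, and Angptl4 rose from 23.0 to 75.2 CPM in stellate cells while it fell from 16.5 to 5.37 CPM in Kupffer cells.

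The first question was how the droplet genes behaved in HSCs, the cells whose droplets they coat and empty. Plin2 (chromosome 4, 86648386 to 86670060, GRCm38) was at 344 and 264 CPM in stellate cells, a ratio of -0.38 (-0.40 to -0.36). Its share of stellate cells with a UMI, after each cell was thinned to 5000 UMIs, was 78.5% (77.6 to 79.4) and 69.6% (68.5 to 70.7). Plin2 was lower in the p16-Alb-LRTD library on both measures, by less than 1.5-fold in CPM. The intervals cover counting error only, and that they do not overlap says nothing of the spread between mice.

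G0s2, the inhibitor of Pnpla2, was at 647 CPM and 770.1 CPM, a ratio of 0.25 (0.24 to 0.26). It was detected in 89.6% and 91.2% of thinned stellate cells, and it was far lower in endothelial cells (14.1 and 12.6 CPM) and Kupffer cells (11.9 and 11.8 CPM), 45.8-fold and 54.2-fold below the stellate level in p16-LRTD. The stellate marker Dcn was likewise far lower there, at 319 and 258 CPM in endothelial and 241 and 222 CPM in Kupffer cells, so G0s2 in these types is not read as their own expression. The gene (chromosome 1, 193272161 to 193273217) overlaps Lamb3 on the opposite strand. Pnpla2 itself, at 24.5 and 25.6 CPM, and Dgat1, at 10.8 CPM in both libraries, had ratios of 0.06 (-0.01 to 0.13) and 0.01 (-0.10 to 0.12).

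Further droplet genes were counted from fixed lists. Of 16 genes of the droplet coat and its growth, 7 were read in stellate cells, 0 were called in either direction, and their median was -0.07, with Plin3 at -0.21 and Hilpda at -0.04. Among 10 genes of lipolysis, 6 were read and 1 was called, Lpin1, a phosphatidate phosphatase and co-regulator of PPAR signalling, at 15.4 and 24.8 CPM (0.69). Of the 11 other genes read for triglyceride synthesis, a pathway in which Lpin1 also acts, 0 were called (median -0.10). Fatty acid synthesis had 11 genes read with a median of -0.22, of which 3, all desaturases, were called lower: Scd1 from 10.4 to 5.77 CPM (-0.84), Fads2 from 17.7 to 10.8 CPM (-0.71) and Scd2 from 143 to 94.3 CPM (-0.60).

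Angptl4 (chromosome 17, 33773750 to 33781830) was the gene of the 10 that differed most in HSCs. Its level was 23.0 CPM (22.2 to 23.8) against 75.2 CPM (73.7 to 76.7), from 3279 and 9406 UMIs. The ratio of 1.71 (1.65 to 1.77) was rank 12 from the top among 10179 genes. More cells carried it: the thinned share with a UMI was 8.95% (8.32 to 9.60) and 29.0% (27.9 to 30.1), and without thinning it was 23.4% and 62.2%. Cells that had one after thinning held a mean of 1.21 and 1.36 UMIs. The 5 cells with most Angptl4 held 2.26% and 0.999% of its stellate UMIs. In endothelial cells of the same libraries the thinned shares were 1.91% and 0.353%, and in Kupffer cells 5.40% and 3.39%, so the stellate share did not rise together with a like share in the other types.

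Collagen RNA per cell, the sum of Col1a1, Col1a2 and Col3a1, split the Angptl4 difference. Stellate cells of both libraries were pooled and cut into 3 ranges of equal size, which held 2267, 2076 and 3509 cells of p16-LRTD and 2558, 2748 and 1315 of p16-Alb-LRTD in the low, middle and high range. These are ranges of a continuous score, and 739 and 819 cells lay within 10% of the lower cut, 386 and 458 within 10% of the upper one. In p16-LRTD, Angptl4 was at 9.75 CPM in the low, 12.6 in the middle and 34.3 in the high range, 3.51-fold more in high than in low. In p16-Alb-LRTD the order was the opposite, at 83.6, 72.2 and 64.9 CPM. The difference between libraries was therefore 3.1 (2.94 to 3.26) in cells with little collagen RNA, 2.52 (2.38 to 2.67) in the middle and 0.92 (0.83 to 1.01) in cells with much. The high range held unlike cells, as Col1a1 was at 3642 and 1691 CPM there (-1.11), against ratios of 0.15 and 0.23 in the low and middle range, so its Angptl4 ratio compares cells with different amounts of collagen RNA. Without stellate cells with a UMI of Dpt, a portal fibroblast marker, the overall Angptl4 ratio was 2.26. Angptl4 and Col1a1 were also found in the same thinned cell 1.23 times as often as their separate shares give in p16-LRTD, and 0.919 times in p16-Alb-LRTD.

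Depth per cell and the level of dissociation stress genes differed between the libraries too. By UMIs per cell, the Angptl4 ratio was 2.42 in the shallowest range, 1.85 in the middle and 1.32 in the deepest. Across ranges of 12 dissociation stress genes, which were higher in p16-Alb-LRTD (7 called higher, 0 lower, median 0.73), it was 1.92, 1.66 and 1.81. Angptl4 was higher in p16-Alb-LRTD in every one of these ranges. Proliferation genes were lower in p16-Alb-LRTD stellate cells (7 of 8 read, median -2.57), and without cells with an Mki67 or Top2a UMI the Angptl4 ratio was 1.71 and the Pdk4 ratio 1.43.

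**Figure D2:**
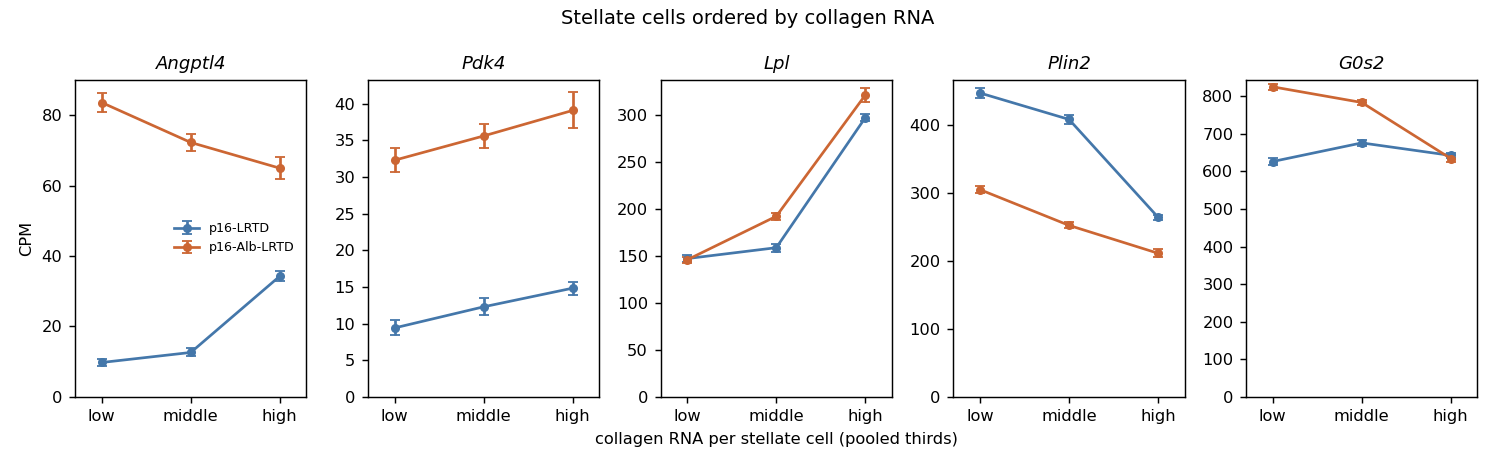
Level (CPM, axes from 0) of Angptl4, Pdk4, Lpl, Plin2 and G0s2 in stellate cells with low, middle and high collagen RNA, in p16-LRTD (blue) and p16-Alb-LRTD (orange), with 95% Poisson intervals that cover counting error only. Angptl4 was at 9.75 CPM in low and 34.3 CPM in high p16-LRTD cells but at 83.6 and 64.9 CPM in p16-Alb-LRTD cells, Pdk4 stayed apart in all ranges, and Lpl rose with collagen RNA in both libraries.

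Lpl (chromosome 8, 68880491 to 68907448), the lipase that Angptl4 inhibits, was at 227 and 200.1 CPM in stellate cells, a ratio of -0.18 (-0.21 to -0.16). The sign of this small difference depended on the weight of the collagen ranges. Lpl was 2.02-fold higher in the high than in the low collagen range of p16-LRTD and 2.20-fold in p16-Alb-LRTD, and within the ranges its ratios were -0.01, 0.28 and 0.11. With the 3 ranges given equal weight the ratio turned to 0.13. The thinned shares of stellate cells with Lpl were 57.5% and 56.3%, with overlapping intervals. Of 16 genes for lipase handling and fatty acid uptake, 9 were read and 1 was called, the fatty acid carrier Fabp4, which was lower (7.42 and 4.24 CPM, -0.81) and sparse. Endothelial cells had Fabp4 at 1114 and 949 CPM, so its stellate value is not read as expression of the stellate cells. Plin2 kept its direction in all collagen ranges (-0.55, -0.69 and -0.32), while G0s2 went from 0.40 in the low to -0.02 in the high range.

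Pdk4 (chromosome 6, 5483351 to 5496309) had stellate levels of 12.9 CPM (12.3 to 13.5) and 35.0 CPM (34.0 to 36.1), from 1838 and 4381 UMIs. The ratio of 1.44 (1.36 to 1.52) was rank 26 from the top. The thinned share with a UMI was 5.02% (4.54 to 5.52) and 13.1% (12.3 to 14.0), against 13.5% and 30.9% without thinning. Unlike Angptl4, Pdk4 had similar ratios over the collagen ranges, 1.78, 1.54 and 1.40, and its level was 1.58-fold and 1.21-fold higher in the high than in the low range of the same library. By depth its ratios were 1.81, 1.34 and 1.34, and by the dissociation stress list 1.24, 1.55 and 1.35. Angptl4 and Pdk4 were both found in 54 thinned p16-LRTD cells where their shares give 35.2, and in 278 p16-Alb-LRTD cells where they give 251.

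The promoters of Pdk4, called higher in stellate cells, and of Plin2, a PPAR target that was not, are shown for comparison, since both genes are PPAR targets that parted in these cells. RefSeq windows on GRCm38.p6 were found for 7 of the 10 genes (not Angptl4, Dgat1 and Lpl), and the 250 bases before the start site were searched on both strands. The printed part stops where the gene begins in GENCODE vM21. Capitals mark AGGTCA, the core hexamer of nuclear receptor sites, or its reverse complement.
Pdk4, chr6:5496310-5496528, minus strand: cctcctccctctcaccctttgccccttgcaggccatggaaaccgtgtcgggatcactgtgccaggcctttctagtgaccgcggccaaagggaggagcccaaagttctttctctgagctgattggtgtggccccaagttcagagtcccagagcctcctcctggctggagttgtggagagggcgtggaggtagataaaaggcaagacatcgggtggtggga
Plin2, chr4:86670061-86670309, minus strand: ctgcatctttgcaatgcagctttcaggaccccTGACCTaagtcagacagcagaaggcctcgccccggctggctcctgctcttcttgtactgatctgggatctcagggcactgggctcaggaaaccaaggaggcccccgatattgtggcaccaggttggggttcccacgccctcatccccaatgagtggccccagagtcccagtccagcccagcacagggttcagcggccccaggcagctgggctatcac
The hexamer of Plin2 starts at position -218 from the start site, and 14.0% of 32851 RefSeq windows held one. Cpt1a had one at -94 and Pparg, which has 3 windows, one at -28 and one at -9. No window of the 7 genes matched AGGNCANAGGNCA, the direct repeat bound by PPAR with RXR, which 0.338% of windows held, the glucocorticoid element GNACANNNTGTNC (0.387%) or the FOXO site GTAAACA (3.17%). These letters being absent says only that they were not in these windows.

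Among the PPAR receptors, Ppard, the widely expressed member, was at 68.0 and 70.7 CPM in stellate cells (0.06, 0.01 to 0.10), at 54.3 and 54.0 CPM in endothelial cells and at 52.3 CPM in both libraries of Kupffer cells. Its stellate ratio turned to -0.07 with the collagen ranges at equal weight. Pparg was a gene of Kupffer and endothelial cells here. The 88 and 44 stellate UMIs came from 35 and 19 cells, and 5 cells held 61.4% and 68.2% of them. The stellate level was 0.318% and 0.190% of the Kupffer level. For comparison, macrophage transcripts ranged from Cd5l (0.0955% and 0.0828%) and Clec4f (0.110% and 0.0727%) over C1qb (0.311% and 0.187%) to Lyz2 (0.746% and 0.567%), with Fcna apart as stated. No difference of Pparg between the libraries is read in stellate cells.

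The partners of the receptors were mostly alike. Of 15 genes for PPAR partners and cofactors, 12 were read in stellate cells, and the 2 called were both C/EBP factors, which act with Pparg in fat cell differentiation. Cebpd rose from 479 to 1086 CPM (1.18) and Cebpb from 339.9 to 669 CPM (0.98). Rxra, the obligate partner, was at 95.8 and 124 CPM (0.37), and Ppara at 14.4 and 13.6 CPM (-0.08).

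Cpt1a, which admits fatty acids to mitochondria, was at 33.6 CPM (32.6 to 34.6) and 38.6 CPM (37.5 to 39.7) in stellate cells, a ratio of 0.20 (0.14 to 0.26). The enzymes downstream of it did not pass the 1.5-fold limit: of 18 genes of fatty acid oxidation read, 0 were called, 4 had ratios above 0 and the median was -0.06. Other PPAR targets were split, with 8 read, 1 higher and 1 lower. Ucp2, a mitochondrial carrier, fell from 31.2 to 19.6 CPM (-0.67). In HSCs, then, the PPAR targets Angptl4 and Pdk4 were called higher, and Plin2 and Cpt1a were not.

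Angptl4 and Pdk4 are also known targets of the glucocorticoid receptor, Pdk4 of FOXO factors and Angptl4 of hypoxia signalling, so these lists were counted in the same cells. All 13 glucocorticoid targets were read in stellate cells, 8 were called higher and 0 lower, and the median was 0.71. Zbtb16 rose from 59.5 to 647 CPM (3.44), Fkbp5 from 64.3 to 256 CPM (2.0) and Cdkn1a, the cell cycle inhibitor p21, from 15.9 to 41.4 CPM (1.38), while the receptor gene Nr3c1 was at 212 and 213 CPM. Of 10 FOXO targets read, 4 were called higher (Klf15 1.65, Foxo3 1.14, Irs2 0.99 and Fbxo32 0.75) and 0 lower. Of 11 hypoxia targets read, Adm was higher (0.70), Vegfa lower (-1.07) and the median was -0.04. In thinned p16-LRTD cells, Angptl4 was found together with Zbtb16 0.834 times and with Fkbp5 0.954 times as often as their shares give, and Pdk4 1.17 and 0.816 times. In p16-Alb-LRTD the values with Fkbp5 were 1.02 for Angptl4 and 0.987 for Pdk4, and Zbtb16, present in 1723 of 1916 cells with Angptl4, is too common there for this measure to be read. Whether any of these regulators had a part in the difference was not tested.

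**Figure D3:**
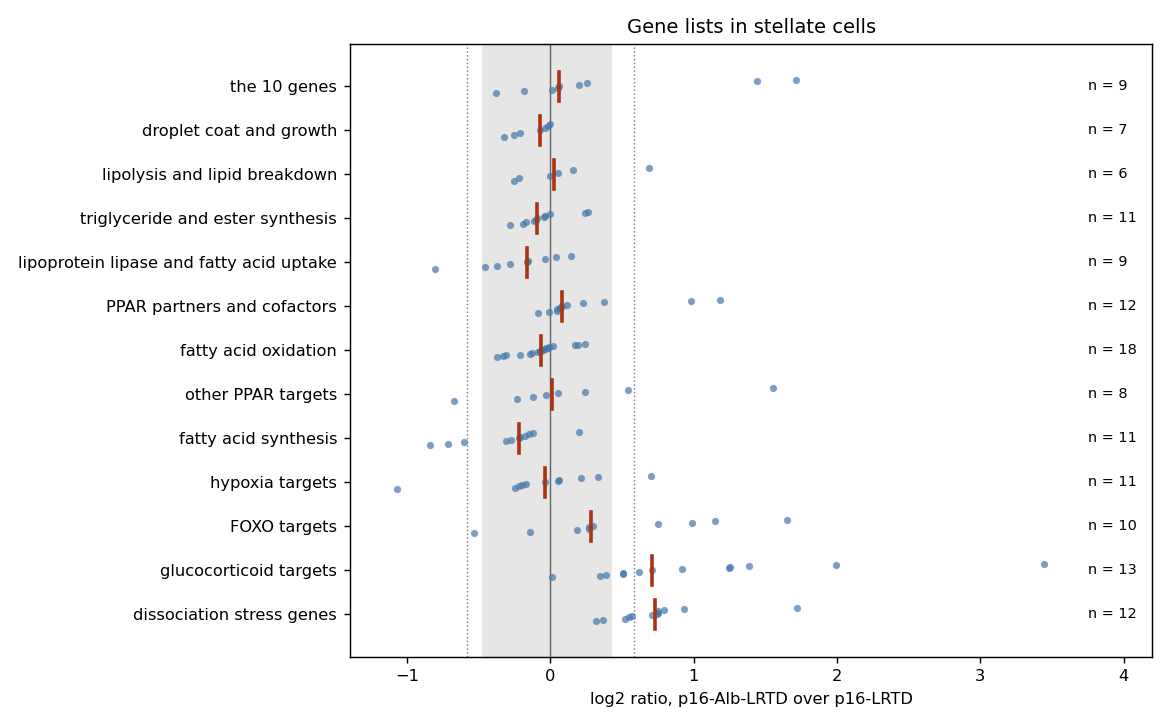
Log2 ratio (p16-Alb-LRTD over p16-LRTD) in stellate cells of every gene read in each list (blue points, n beside), with the median of the list (red bar). The grey band spans the central 90% of all 10179 genes and the dotted lines are 1.5-fold. The medians of the droplet, triglyceride synthesis and oxidation lists were -0.07, -0.10 and -0.06, that of fatty acid synthesis was -0.22, and the glucocorticoid and dissociation stress lists had medians of 0.71 and 0.73.

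In endothelial cells Pparg was lower in p16-Alb-LRTD, Pdk4 sat at the limit for a call, and Lpl, though called lower, rested on few cells. Of the 10 genes 9 were read, 1 was called higher and 2 lower, beside 6.44% of 9858 genes higher and 13.5% lower, and the median of the 9 was -0.01 beside -0.10 for all genes. Pparg (chromosome 6, 115360951 to 115490399) was at 63.4 CPM (57.2 to 70.0) and 28.6 CPM (23.6 to 34.4), a ratio of -1.15 (-1.46 to -0.84). Its UMIs were spread over 171 of 430 and 65 of 283 cells, and the thinned share fell from 21.8% (17.9 to 26.0) to 12.7% (9.07 to 17.2). Across all alternatives tried the Pparg ratio stayed between -1.27 and -0.86. In Kupffer cells, where Pparg was at 194 and 185 CPM, the ratio was -0.07 (-0.20 to 0.06), and the endothelial ratio was lower by 1.08 (0.75 to 1.40, counting error only).

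**Figure D4:**
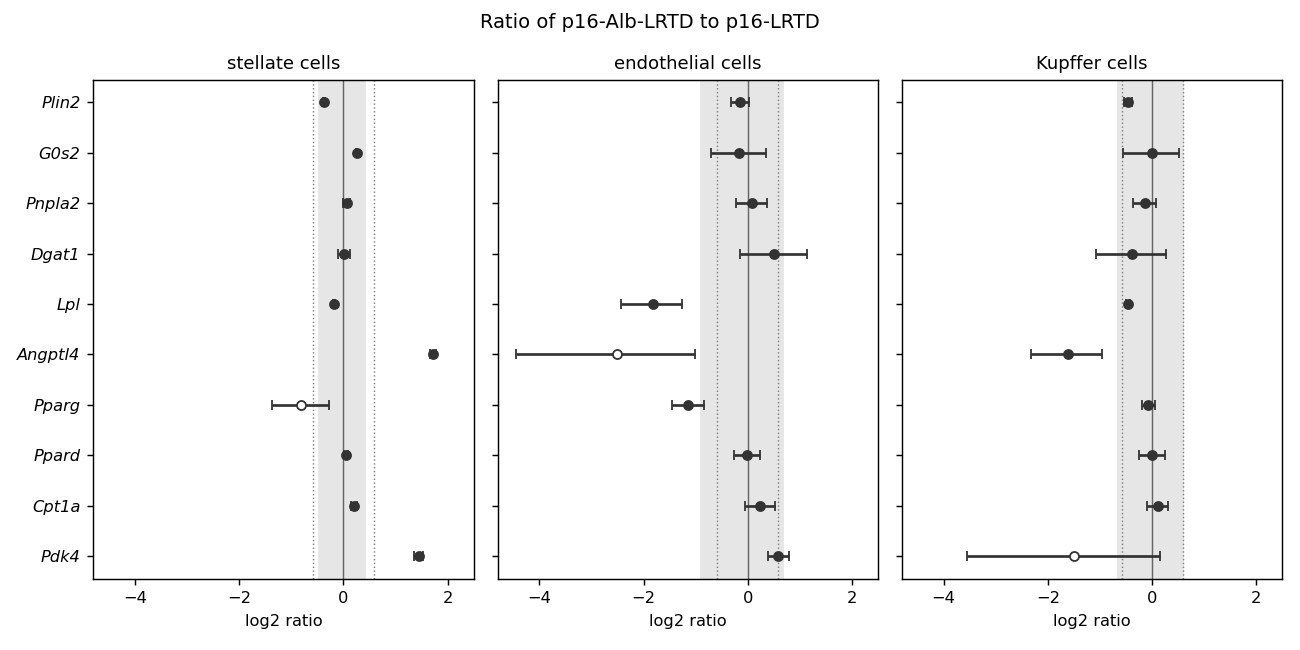
Log2 ratio of p16-Alb-LRTD to p16-LRTD for each gene in stellate, endothelial and Kupffer cells, with 95% intervals that cover counting error only; open points mark genes under 5 CPM on average. The grey band spans the central 90% of all genes read in that type and the dotted lines are 1.5-fold. Angptl4 lay at 1.71 in stellate, -2.50 in endothelial and -1.62 in Kupffer cells, and Pparg lay below the band in endothelial cells alone among the types where it was read.

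Pdk4 was at 66.9 CPM (60.6 to 73.7) and 100.7 CPM (91.1 to 111) in endothelial cells, above its stellate level in each library. The difference, 0.59 (0.39 to 0.79) or 1.504-fold, sat at the limit for a call and lost it under several alternatives, with a range of 0.37 to 0.69. It was smaller than the stellate one by 0.85 (0.64 to 1.07). The thinned share was 22.0% (18.1 to 26.3) and 30.4% (25.1 to 36.1).

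The endothelial fall of Lpl rested on few cells. Lpl was at 26.6 CPM (22.7 to 31.1) and 7.53 CPM (5.08 to 10.8), a ratio of -1.82 (-2.44 to -1.25), but 1 p16-LRTD cell held 82 of 164 UMIs and 5 cells held 123 of them. The 5 cells with most Lpl were set aside in each library, after their values had been seen, and the levels were then 6.81 and 4.36 CPM (-0.64). The share of cells with a UMI had overlapping intervals at 5000 UMIs, 4.31% (2.57 to 6.72) and 5.30% (3.00 to 8.59), and at 3000 UMIs, 2.79% (1.45 to 4.82) and 2.12% (0.782 to 4.56), and was 10.5% and 7.77% without thinning. Every alternative kept the ratio below 0, but it was -0.27 when barcodes of several gates were kept, -0.57 after thinning and -0.84 without cells with an Mki67 or Top2a UMI, so its size is not settled. Angptl4 had 35 and 4 endothelial UMIs and was not read, 5 cells of p16-LRTD held 68.6% of them, and with barcodes of several gates kept its ratio was 2.12 in place of -2.50. Endothelial cells of p16-LRTD also carried more RNA of collagen-producing cells, with summed Col1a1, Col1a2 and Col3a1 at 634 and 41.7 CPM and summed portal fibroblast and mesothelial markers at 64.0 and 24.1 CPM, whereas summed hepatocyte markers were at 136 and 192 CPM. The part of these cells in the ratios was not tested. Without endothelial cells with at least 5 stellate gate UMIs per 10000, the Pparg ratio was -1.27, and cells below that level stayed in.

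Other genes differed by less than 1.5-fold in endothelial cells: Plin2 was at 123 and 111 CPM, Pnpla2 at 38.0 and 40.2, Dgat1 at 7.47 and 10.5, and Cpt1a at 38.7 and 45.4. Around them, the glucocorticoid list had 7 of 13 genes higher and 0 lower (median 0.68), the FOXO list 5 of 9 higher and 0 lower (Insr 1.22, Fbxo32 1.18, Ccng2 0.99, Sesn1 0.73 and Foxo3 0.72), and the dissociation stress list 9 of 12 higher and 0 lower (median 0.85). Markers of the endothelial cells themselves moved too, with Lyve1 at 1111 and 669 CPM (-0.73) and Egfl7 at 1524 and 797 CPM (-0.93), as did proliferation genes, 4 of 5 of which were lower (median -1.38), and their part in the Pparg and Pdk4 ratios was not tested. Of 9 genes of fatty acid synthesis read, 2 were higher (Scd1 1.61 and Thrsp 0.78) and 4 lower (Elovl6 -1.08, Srebf1 -0.73, Acaca -0.68 and Scd2 -0.59), with a median of -0.31, and Scd1, at 18.2 and 55.5 CPM, had the opposite sign to its stellate ratio.

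Kupffer cells had the highest Lpl, Plin2, Pnpla2, Cpt1a and Pparg levels of the 3 types in both libraries. Of 9 genes read, 0 were called higher and 1 lower, beside 5.21% of 9514 genes higher and 6.83% lower, with a median of -0.15 beside -0.06. The gene called was Angptl4, at 16.5 CPM (13.4 to 20.1) and 5.37 CPM (3.44 to 7.98), a ratio of -1.62 (-2.33 to -0.96) from 98 and 24 UMIs in 57 and 18 cells. The thinned shares, 5.40% (3.05 to 8.74) and 3.39% (1.25 to 7.23), overlapped, and in cells with 10000 to 30000 UMIs the ratio was -0.43, under the limit. Collagen RNA in Kupffer cells moved with it, from 147 to 38.9 CPM, and median depth differed as given above. Their part was not tested.

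In Kupffer cells the lists for fatty acid uptake and oxidation had 4 and 3 genes called lower in p16-Alb-LRTD and 0 higher, while other lipid lists had medians near 0 or mixed calls. Lpl was at 2132 and 1552 CPM (-0.46, -0.50 to -0.42) and Plin2 at 533 and 386 CPM (-0.46, -0.55 to -0.38), both under 1.5-fold. Lpl was found in 96.4% and 95.5% of thinned cells, with a mean of 10.6 and 8.20 UMIs in those that had it. Plin2 likewise was found in 66.2% and 68.4%, with means of 3.53 and 2.56 UMIs, so for both genes the shares were alike within their intervals and the UMIs per positive cell were fewer. Among 11 uptake genes read 0 were higher and 4 lower, namely Fabp5 (537 and 137 CPM, -1.97), Fabp4 (94.9 and 33.3 CPM, -1.51), the fatty acid transporter Slc27a1 (-1.12) and the lipase maturation factor Lmf1 (-0.87). Of 19 oxidation genes, 0 were higher and 3 lower (Slc25a20 -1.12, Cpt2 -0.80 and Decr1 -0.70), the median was -0.26, and 1 had a ratio above 0. The medians of the droplet coat, triglyceride synthesis and fatty acid synthesis lists were 0.05, -0.02 and 0.05, each with 0 genes higher and 1 lower, and lipolysis had 1 higher, the hormone-sensitive lipase Lipe (7.23 and 14.98 CPM, 1.05), and 1 lower, the lysosomal lipase Lipa (-0.61). Markers of the macrophages moved as well, with Marco at 508 and 1461 CPM (1.52), Timd4 at 195 and 297 CPM (0.61), Lyz2 at -0.42 and Cd68 at -0.38, and 5 of 7 proliferation genes were lower (median -1.09). Their part in the lipid genes was not tested. Cpt1a, at 74.0 and 79.8 CPM (0.11, -0.10 to 0.31), was not among those that fell. Pnpla2 was at 75.2 and 68.0 CPM and Dgat1 at 9.08 and 6.93, with intervals of the ratio that included 0. Pdk4 had 15 and 4 UMIs and was not read.

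Over the 3 types, Angptl4 was the gene of the 10 whose intervals lay on opposite sides of 0 in different types, and its stellate ratio exceeded the Kupffer one by 3.33 (2.68 to 3.98, counting error only). In p16-LRTD its stellate level, 23.0 CPM, was close to the Kupffer level of 16.5 CPM, while in p16-Alb-LRTD it was 75.2 against 5.37 CPM. The glucocorticoid and dissociation stress lists both pointed one way in all 3 types. In Kupffer cells 8 of 13 glucocorticoid targets were higher and 0 lower (Ddit4 2.56, Fkbp5 2.24), and 5 of 12 stress genes were higher and 0 lower (median 0.52), with all 12 above 0 in each type. The part of dissociation in the glucocorticoid list was not tested. Of 9 FOXO targets read in Kupffer cells, 1 was called higher (Cited2 0.81) and 0 lower, with a median of -0.11.

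Genes with the most similar profile over the 6 sums of cell type and library were searched among 4715 genes with at least 20 CPM in every type, by the root mean square difference of centred log2 levels. Zeb2 was nearest to Plin2 (0.15), ahead of Rnh1 (0.20) and Mdh1 (0.23). Akap10 (0.06), Phf23 (0.06) and Senp2 (0.09) were nearest to Pnpla2, and Idh3b (0.06), Cog4 (0.07) and Gnas (0.07) to Ppard. These are likenesses over 6 sums from 2 libraries and describe no more than that.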

How the data were processed

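The deposited values are UMI counts, not normalised by the authors, of every gene in the barcodes called by CellRanger 7.0.1 on mm10, from 2 libraries of the 10x Genomics 3' v3.1 kit, and the annotation release is not given in the sources used here. From there on everything was computed here (Python 3.11.15, NumPy 2.4.6, SciPy 1.17.1, pandas 2.3.3). After the study's methods, barcodes with over 5% mitochondrial counts, under 2000 or over 7000 genes, or over 50000 UMIs were left out, and no doublet caller was run. Total depth was 193746596 UMIs (p16-LRTD) and 162219167 UMIs (p16-Alb-LRTD). Ratio intervals are exact conditional ones and shares have Clopper-Pearson intervals after thinning without replacement to 5000 UMIs, which left out 16 and 7 stellate, 12 and 0 endothelial, and 5 and 1 Kupffer cells. The 10 genes and all lists were chosen with earlier results of these data known. Of a list, at most 5 genes per cell type that were read and passed 1.5-fold are named by size, others as plain values, and some listed genes are not reported here. Coordinates are from GENCODE vM21 and promoters from RefSeq. Of 24 alternatives, 5 were chosen after seeing the data, and one used edgeR 4.0.16 (R 4.3.3) for TMM factors only. The ratio intervals were tried on simulated Poisson counts. These have no added spread between cells, mice or libraries, so the trial could check only the calculation.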

Additional observations from a re-analysis of the deposited data

Results flagged for a closer look

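Angptl4 had ratios on opposite sides of 0 in different cell types, each with an interval that left out 0: 1.71 in stellate cells, -2.50 in endothelial cells and -1.62 in Kupffer cells. With 1 library per genotype the difference between the types was not tested. The endothelial value came from 35 and 4 UMIs and turned to 2.12 when barcodes of several gates were kept, and the Kupffer value came from 98 and 24 UMIs and was -0.43 in cells with 10000 to 30000 UMIs.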

How the results depend on the processing

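No paired analysis was possible because there was 1 library of each genotype. In stellate cells 2 genes higher and 0 lower was the count under each alternative that gave one, with Angptl4 between 1.62 (no upper limits) and 2.26 (without cells with a Dpt UMI) and Pdk4 between 1.38 and 1.55. In endothelial cells the count higher was 0 with every deposited barcode, a mitochondrial limit of 10%, lower gates or cells of 10000 to 30000 UMIs. It was also 0 without cells with an Mki67 or Top2a UMI, without cells with at least 5 stellate gate UMIs per 10000, or at 2-fold. With barcodes of several gates kept or median-of-ratios scaling it was 2. The endothelial count lower was 1 with barcodes of several gates kept, thinning to 5000 UMIs or a mean of at least 20 CPM. In Kupffer cells the count lower was 3 after thinning, 2 with the mean of per-cell CPM or a mean of at least 1 CPM, and 0 with a mean of at least 20 CPM. Of 470 log2 ratios under alternatives, 87 moved by more than their counting interval and 0 called ones changed sign. Ratios of genes not called did change sign, Lpl in stellate cells to 0.13 at equal weight of the collagen ranges among them. Depth limits the genes under about 100 UMIs, such as Angptl4 in endothelial and Kupffer cells.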

Other observations

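Barcodes that passed none of the 3 gates, 194 in p16-LRTD and 113 in p16-Alb-LRTD, had more Angptl4 than any gated type, at 159 CPM (147 to 171) and 141 CPM (127 to 156), so the stellate difference had no counterpart there. They also had Plin2 at 831 and 724 CPM, Lpl at 822 and 425 CPM and Pparg at 34.2 and 22.1 CPM. Their summed markers were of several types, with stellate markers outside the gate at 8296 and 6538 CPM, Kupffer markers outside the gate at 6200 and 6384 CPM, hepatocyte markers at 2584 and 1700 CPM, and portal fibroblast and mesothelial markers at 1159 and 733 CPM, against 176 and 145 CPM of the latter in stellate cells. Barcodes that passed several gates, 245 and 221, had Angptl4 at 9.63 CPM (7.31 to 12.4) and 45.3 CPM (40.2 to 50.9), and Pdk4 at 39.7 and 63.2 CPM.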
